A study of Rattus norvegicus with 14 samples.

Results

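The genes described are those of the major histocompatibility complex (MHC) class II pathway in the choroid plexus (CP) of rats with and without gonads: the class II chains RT1-Ba, RT1-Bb, RT1-Da and RT1-Db1, the peptide loading genes RT1-DMa, RT1-DMb and Cd74, and the regulators Ciita, Rfx5 and Rfxap. They were chosen by symbol, through the accession that each array probe carries, and all 10 were found among 15127 named genes, which with 12321 unnamed probes made the 27448 features tested. CP from the lateral ventricles of Wistar rats aged 2 months was taken 2 weeks after ovariectomy (OVX), orchidectomy (OOX) or a sham operation that left the gonads in place, and RNA pooled from 3 animals was put on each array. There were 3 sham female, 3 OVX female, 4 sham male and 4 OOX male arrays. The methods name 3 pools per group where the labels give 4 for males, and whether pools share animals is not stated, so that p-values measure the spread between these pools only. Wistar is an outbred stock. The comparisons ask how the loss of ovarian or testicular hormones changes gene expression in CP, and whether it does so alike in both sexes.

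Class II molecules are pairs of an alpha and a beta chain that present peptides from endosomes to CD4 T cells. In the rat, RT1-Ba and RT1-Bb encode the chains of the RT1-B molecule and RT1-Da and RT1-Db1 those of RT1-D. Some class II chains, though not all, are among the most variable proteins between individuals. The invariant chain, Cd74, guides new class II molecules to the endosome, and the RT1-DM pair exchanges its remnant for antigen peptides. Transcription depends on a complex at the promoter in which Rfx5, Rfxap and Rfxank bind an X box next to the inverted CCAAT sequence of the Y box, and on the coactivator Ciita, which this complex recruits. In the brain, class II is known mainly from macrophages, dendritic cells and microglia, and CP holds macrophages and dendritic cells in its stroma and on its ventricular face. In a pooled whole tissue, fewer cells of a type and less RNA per cell cannot be told apart.

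Promoters are shown for the sequence elements that the regulators are known to bind. Of the 8 genes with a promoter window, 4 held both elements in the arrangement searched. RefSeq promoter windows of assembly GRCr8, from 250 bases before to 50 after a gene's start, were at hand for 8 of the 10 genes, all but RT1-DMb and Ciita. An X box with at most 2 mismatches, followed on the same strand after 14 to 26 bases by ATTGG, was present in RT1-Bb, RT1-Da, RT1-Db1 and RT1-DMa, and these are printed 5′ to 3′ on the strand of the gene with the X box and ATTGG in capitals.
RT1-Bb, chr20:4604155-4604235, minus strand: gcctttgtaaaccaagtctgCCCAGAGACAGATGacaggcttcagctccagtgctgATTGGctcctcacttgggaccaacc
RT1-Da, chr20:4515309-4515390, plus strand: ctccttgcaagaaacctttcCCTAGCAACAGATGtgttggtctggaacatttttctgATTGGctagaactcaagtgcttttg
RT1-Db1, chr20:4560218-4560298, minus strand: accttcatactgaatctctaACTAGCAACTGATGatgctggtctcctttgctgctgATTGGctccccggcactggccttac
RT1-DMa, chr20:4712375-4712456, minus strand: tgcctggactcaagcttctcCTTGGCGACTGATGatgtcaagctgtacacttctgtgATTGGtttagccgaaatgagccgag
The X box matched fully in RT1-Bb and RT1-Da, with 1 mismatch in RT1-Db1 and with 2 in RT1-DMa, and 22 or 23 bases lay between both elements. Of 33469 windows of all genes, 22 held this arrangement (0.0657%), and of these 5 others belonged to RT1 genes, among them the class II genes RT1-DOb and RT1-Db2. An X box alone, on either strand, was in 7.9% of all windows and ATTGG in 37.5%. Cd74 had an X box with 2 mismatches at position -220 and no ATTGG after it on the same strand at that distance. It held ATTGG on the opposite strand, read as CCAAT, at position -189, within that distance. The windows of RT1-Ba, Rfx5 and Rfxap had no X box match. A match of letters is a description and not a measured binding site.

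Values are the background-subtracted signal of the brightest probe of a gene, on the log2 scale, minus the median over the rat probes of the array. Of the spots on an array, 79.7% to 87.2% were well above background by the scanner software, and median signals were 171 to 289. This share was 79.7% to 82.7% in sham females and 85.3% to 87.2% in OVX females, without overlap. In males it was 80.3% to 85.7% after sham surgery and 83.5% to 86.5% after OOX. Arrays were scanned on 2 days and 5 slides: all sham females and OVX replicate 1 on the first day, all other arrays on the second. Markers of CP epithelium marked the tissue as labelled, with Ttr, the thyroxine carrier of cerebrospinal fluid, saturated on all 14 arrays. Sham male replicate 1 stood apart: its neuron markers summed to 88.2 times the array median, against 4.46 to 49.8 on the other 13 arrays. Of the 10 class II genes, 9 were well above background on every array and none was saturated, whereas RT1-Ba was well above background on 6 of 14 arrays.

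The class II chains other than RT1-Ba were bright in CP, and none of them passed the test after either operation. RT1-Da, the RT1-D alpha chain, was 3.77, 4.12 and 3.68 log2 units above the array median in sham females and 4.08, 3.75 and 3.56 in OVX females. In males it was 2.91, 3.47, 4.17 and 4.29 after sham surgery and 4.14, 3.82, 4.45 and 4.27 after OOX. Values of sham and gonadectomized rats overlapped in both sexes, and the lowest of all was sham male replicate 1. The fitted log2 difference was -0.06 in females (95% CI -0.53 to 0.41, adjusted p = 0.876) and 0.46 in males (-0.25 to 1.17, adjusted p = 0.833). RT1-Bb, the RT1-B beta chain, was 2.95, 3.34 and 2.52 in sham females, 3.39, 3.31 and 2.97 in OVX females, 2.40, 3.11, 3.54 and 3.63 in sham males and 3.30, 3.17, 3.71 and 3.44 in OOX males. Its groups also overlapped, with log2 differences of 0.28 (SE 0.24) in females and 0.24 (SE 0.28) in males, both with intervals that span 0. RT1-Db1, the RT1-D beta chain, was 3.50, 3.52 and 3.42 in sham females and 3.47, 3.70 and 3.30 in OVX females, a difference of 0.01 (-0.33 to 0.36). In males it was 2.79, 3.22, 4.08 and 3.77 after sham surgery and 3.40, 3.51, 3.69 and 3.80 after OOX, a difference of 0.14 (-0.49 to 0.76). The spread between sham males was larger than any fitted difference of these chains: SD 0.64 for RT1-Da, 0.56 for RT1-Bb and 0.57 for RT1-Db1 (n = 4), against 0.24, 0.41 and 0.05 in sham females (n = 3). Without sham male replicate 1 the male differences were 0.19 for RT1-Da, -0.02 for RT1-Bb and -0.09 for RT1-Db1, the lowest values that leaving out any 1 male array gave.

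No peptide loading gene passed the test either. Cd74, the invariant chain, was 5.58, 5.90 and 5.33 in sham females, 5.92, 6.04 and 5.45 in OVX females, 5.30, 5.57, 5.96 and 6.36 in sham males and 6.08, 5.47, 5.72 and 5.89 in OOX males. The groups overlapped, with log2 differences of 0.20 (-0.33 to 0.73) in females and -0.01 (-0.57 to 0.55) in males. RT1-DMa, the alpha chain of the peptide exchange factor, had group means of 3.00 ± 0.38 (SD, n = 3) in sham females, 2.90 ± 0.22 (n = 3) in OVX females, 2.64 ± 0.24 (n = 4) in sham males and 2.74 ± 0.09 (n = 4) in OOX males. RT1-DMb, its beta chain, had the narrowest range of the 10 genes over the 14 arrays, from 2.20 to 2.79, and group means of 2.61, 2.55, 2.57 and 2.53 in the same order. For RT1-DMb the intervals of both differences stayed within 0.43 log2 units of 0, and for RT1-DMa they reached -0.65 in females and 0.45 in males.

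**Figure D1:**
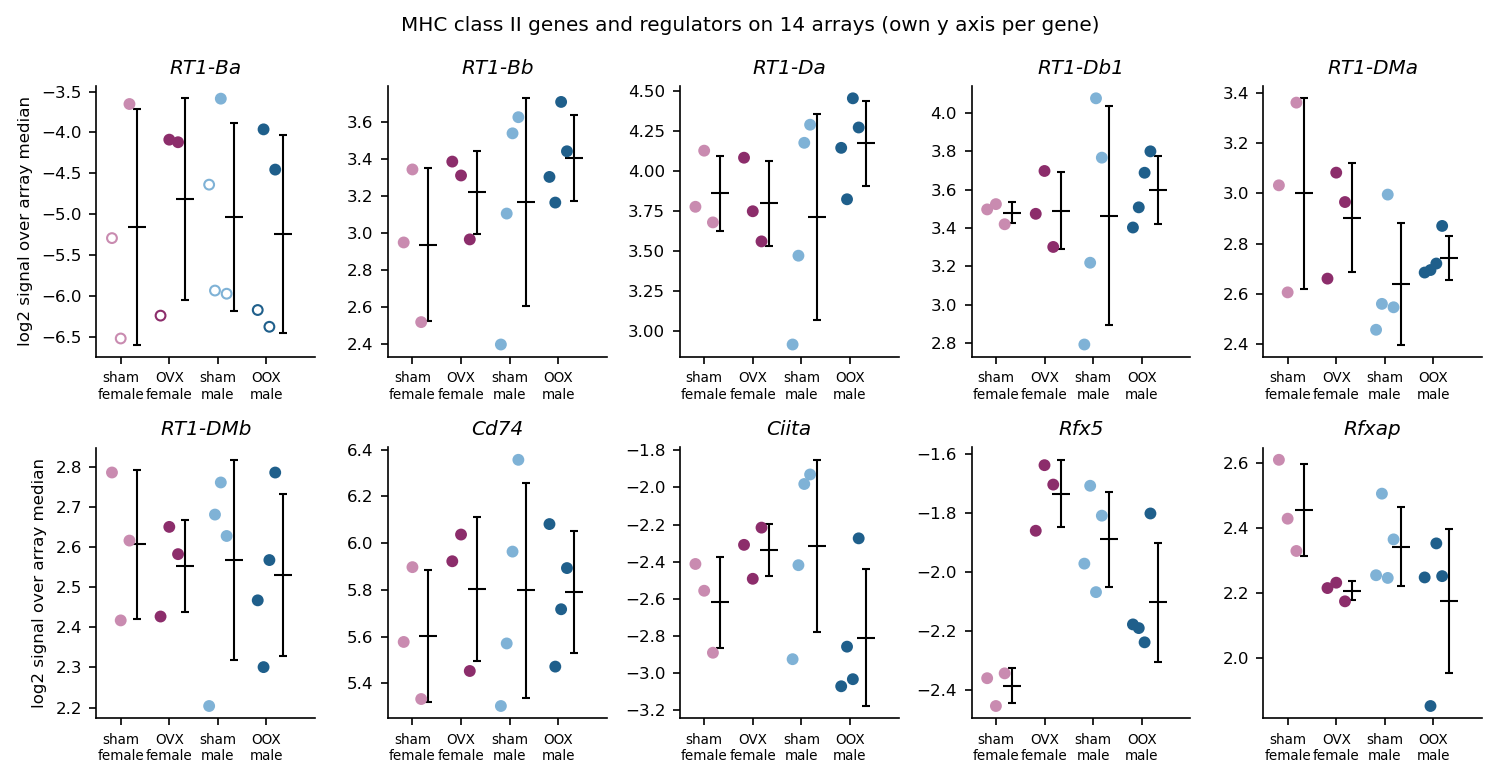
Log2 signal over the array median (y axis, own scale for each gene) of the 10 genes in the 4 groups (x axis). Each circle is 1 array, open where the probe was not well above background, and bars give the mean and SD of a group. Only Rfx5 and Rfxap separate sham from OVX females without overlap, Rfx5 upwards and Rfxap downwards.

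Rfx5, the DNA-binding subunit of the X box complex, was the single gene of the 10 that passed the test, and it rose after OVX, a call that was lost with a block for scan day, slide or replicate number. Its values were -2.36, -2.46 and -2.34 in sham females and -1.86, -1.64 and -1.70 in OVX females, so that every OVX array lay above every sham array. It was higher after OVX by 0.65 log2 units (SE 0.12, 95% CI 0.36 to 0.95), a 1.57-fold difference, with an adjusted p of 0.0401 in limma. The call needed all 6 arrays: leaving out any 1 of the 6 arrays kept the difference between 0.61 and 0.72 and raised the adjusted p to 0.0772 to 0.125. The probe is dim, with signals of 32.8 to 88.6. The share of spots well above background also separated sham from OVX females, and its part in the difference was not tested. With another background correction (normexp), which adds an offset of 50, the difference was 0.26 with an adjusted p of 0.521. Such an offset by itself lessens log2 differences between signals this dim, so this value does not isolate the background estimate. Since all sham females were scanned on the first day, the comparison within that day rests on OVX replicate 1 alone, which was 0.53 above the 3 sham females and 0.48 above sham replicate 3 on their common slide. With the scan day as a block the adjusted p was 0.298, with the slide 0.596 and with the replicate number 0.0833. Rfx5 is also on a list of genes that the study chose as higher in OVX females on these samples, which is not independent evidence. In males Rfx5 was -1.97, -1.71, -2.07 and -1.81 after sham surgery and -2.18, -2.19, -2.24 and -1.80 after OOX, with overlap through OOX replicate 4, and the difference of -0.21 (-0.56 to 0.13) had an adjusted p of 0.850. By group mean the order was sham female -2.39 ± 0.06 (SD, n = 3), OOX male -2.10 ± 0.20 (n = 4), sham male -1.89 ± 0.16 (n = 4) and OVX female -1.73 ± 0.11 (n = 3). Sham females lay below every other array, and the other 3 groups overlapped with their neighbours in this order.

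The other regulators did not pass the test. Ciita, the coactivator that class II transcription depends on, was -2.41, -2.56 and -2.89 in sham females and -2.31, -2.49 and -2.22 in OVX females, a difference of 0.28 (-0.12 to 0.69, adjusted p = 0.385). In males it was -2.93, -2.42, -1.98 and -1.93 after sham surgery and -3.07, -2.86, -3.03 and -2.27 after OOX, a difference of -0.50 (-1.11 to 0.12, adjusted p = 0.743). The groups overlapped in both sexes, and the fitted differences had opposite signs. Ciita is dim as well, with signals of 24.5 to 62.1. Rfxap, a subunit of the Rfx5 complex, was 2.61, 2.43 and 2.33 in sham females and 2.21, 2.23 and 2.17 in OVX females, with every OVX array below every sham array. Its difference of -0.25 (SE 0.13, -0.55 to 0.05) did not pass (adjusted p = 0.310). In males the Rfxap difference was -0.17 (-0.51 to 0.18), with an SD of 0.12 in sham and 0.22 in OOX males (n = 4 each).

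RT1-Ba, the RT1-B alpha chain, could be compared only roughly, since it was well above background on 1 of 3 sham female, 2 of 3 OVX female, 1 of 4 sham male and 2 of 4 OOX male arrays. Its values ran from -6.52 to -3.59, with group SDs of 1.15 to 1.44, and its log2 difference was 0.34 (-1.77 to 2.45) in females and -0.21 (-1.83 to 1.41) in males. These intervals allow large changes in either direction.

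The number of the 10 genes called was near the share over all features in both sexes. In females 1 of 10 was called at an adjusted p under 0.05 where 7.21% of all features were, 1 of 10 had an unadjusted p under 0.05 where 22.4% did, and 2 of 10 did not overlap between groups where 29.2% did not. Their median log2 difference was 0.11, beside -0.04 over all features, and 6 were positive. Without RT1-Ba, which was near background, the median was 0.01. After OOX 0 of 10 were called where 0.0619% of all features were, and 0 of 10 had an unadjusted p under 0.05, against 7.7% of all features. None of the 10 was without overlap in males, against 4.38% of all features, and the median difference was -0.02 beside 0.01. On slide 3, which held OOX replicate 4 and sham replicates 1 and 2, 9 of the 10 were higher in the OOX array, with a median of 0.43 beside 0.10 over all features and 1.08 for RT1-Da. This slide holds sham male replicate 1, without which the median over all male arrays was -0.12.

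**Figure D2:**
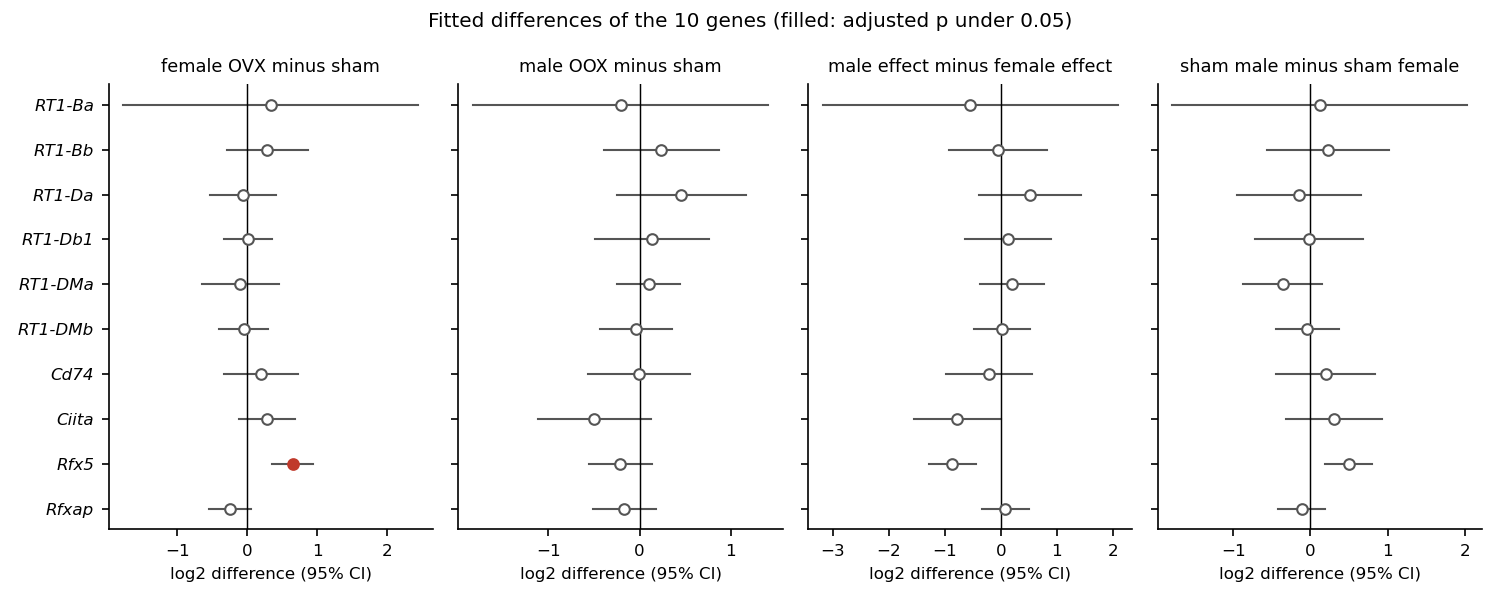
Fitted log2 differences (x axis) of the 10 genes (y axis) in the 4 comparisons, with 95% confidence intervals as lines. The filled point, Rfx5 after OVX, is the single difference with an adjusted p under 0.05, and the widest intervals are those of RT1-Ba.

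The effect of gonadectomy was not shown to differ between the sexes for any of the 10 genes. In the fit over all arrays 0 of 10 passed, where 0.23% of all features did, and 1 of 10, Rfx5, had an unadjusted p under 0.05, where 11.7% of all features did. The male effect minus the female effect was -0.87 for Rfx5 (SE 0.19, 95% CI -1.28 to -0.45, adjusted p = 0.111). It had an adjusted p under 0.05 in 2 of 26 alternatives. These were arrays scaled to their 75th percentile (-0.95, adjusted p = 0.0329) and the authors' value table (-0.91, adjusted p = 0.0442). With a block for scan day it was -0.74 and for slide -0.53, both resting on OVX replicate 1 alone in OVX females. The replicate block gave an adjusted p of 0.325, and normexp gave -0.45 (adjusted p = 0.307). For Ciita the male effect minus the female effect was -0.78 (-1.56 to 0.00, adjusted p = 0.429) and for RT1-Da 0.52 (-0.38 to 1.43, adjusted p = 0.725). The other 7 had differences between -0.55 and 0.20.

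Sham males and sham females were compared as well, a contrast in which sex and scan day cannot be told apart. None of the 10 was called, where 0.135% of all features were, 1 of 10 had an unadjusted p under 0.05 (11.9% of all features) and 1 of 10 did not overlap (13.4%). Both times this was Rfx5, 0.50 log2 units higher in sham males (SE 0.13, 0.19 to 0.80, adjusted p = 0.233). It passed with the slide as a random block (0.51, adjusted p = 0.0372), but that fit raised calls over all features from 37 to 962 (3.5%). No slide held both sham groups. RT1-DMa was 0.36 lower in the fit, with an interval from -0.87 to 0.15. The median over the 10 genes was 0.05 beside -0.05, and -0.02 without RT1-Ba.

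Across arrays, RT1-Bb, RT1-Da, RT1-Db1 and Cd74 went up and down together, and RT1-Ba, near background, did not go with them. Over the 14 arrays Pearson's r was 0.88 between RT1-Bb and RT1-Da, 0.82 between RT1-Da and RT1-Db1 and 0.78 between RT1-Bb and RT1-Db1. For Cd74 it was 0.80 with RT1-Bb, 0.71 with RT1-Da and 0.65 with RT1-Db1. These coefficients describe arrays that share slides and scaling. Without sham male replicate 1 they were 0.80, 0.66 and 0.63 between the chains and 0.75, 0.64 and 0.55 for Cd74, in the same order. RT1-Ba had r = -0.41 with RT1-Bb, -0.37 with RT1-Da, 0.11 with RT1-Db1 and -0.39 with Cd74. The RT1-DM genes were less alike, with r = 0.55 between both and -0.22 between RT1-DMa and RT1-Bb. Without sham male replicate 1 these were 0.44 and -0.61. RT1-DMa had r = 0.64 with RT1-Ba, near background, and 0.75 without that array. Rfx5 did not go with the chains (r = 0.13 with RT1-Bb and -0.21 with RT1-Da), and Ciita had r = 0.37 with RT1-Bb and 0.49 with RT1-Db1. The mean of RT1-Bb, RT1-Da, RT1-Db1, RT1-DMa, RT1-DMb and Cd74, each centred on its own mean, was lowest in sham male replicate 1 (-0.61), with sham male replicate 2 (-0.19) next, and highest in sham male replicates 3 (0.30) and 4 (0.25). Both extremes thus lay in 1 group, and the female arrays stayed between -0.15 and 0.13.

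**Figure D3:**
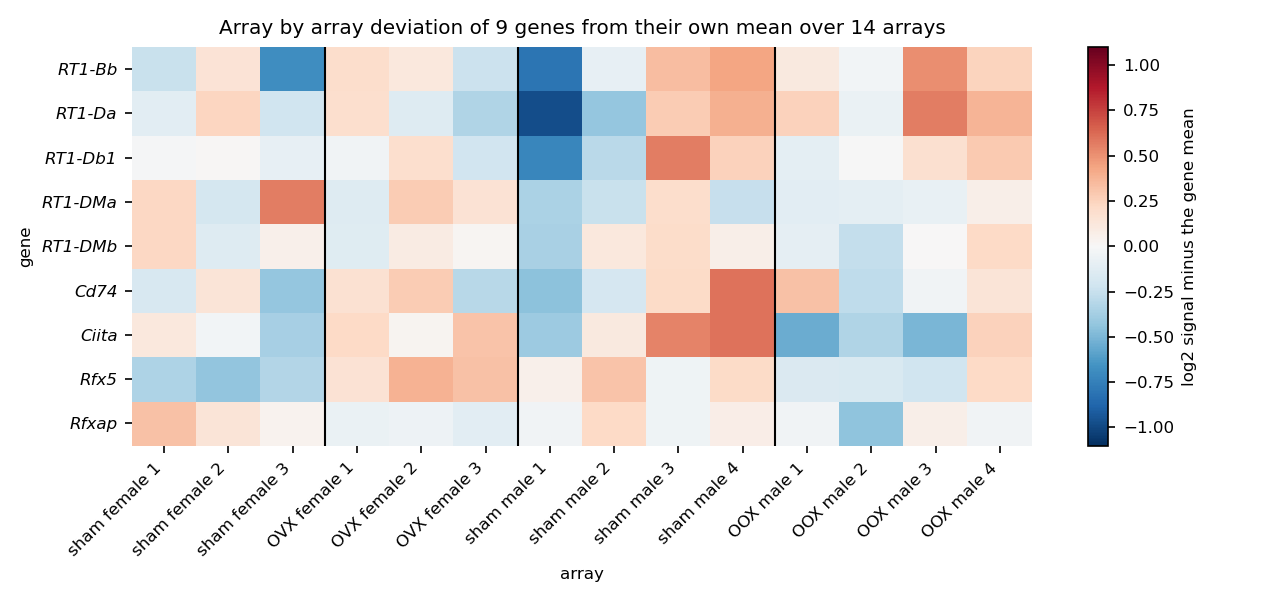
Log2 signal of 9 genes (rows) on the 14 arrays (columns) minus the mean of the gene over all arrays, blue below and red above it, with lines between groups; RT1-Ba, near background, is left out. RT1-Bb, RT1-Da, RT1-Db1 and Cd74 share the column of low values in sham male 1 and of high values in sham male 3 and 4, while Rfx5 is low in the 3 sham females.

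Of 11424 other named genes that were well above background on every array, the 10 most alike to this mean were Bloc1s6 (r = 0.84), Sqor, Gzmk, Tmem37, Porcn, Lta, Zfyve1, Spry3, Trim69 and Myl12a (r = 0.76). Gzmk, a granzyme of lymphocytes, had r = 0.79 and Lta, the lymphotoxin alpha gene, 0.78. Without sham male replicate 1 the coefficients were 0.48 for Myl12a to 0.87 for Tmem37. Macrophage markers, 16 of 16 tested, summed to 107 to 129 times the array median in sham females, 108 to 141 in OVX females, 88.3 to 151 in sham males and 98.8 to 153 in OOX males. Their log2 sum had r = 0.65 with the class II mean over 14 arrays and 0.42 without sham male replicate 1. For dendritic cell markers, 8 of 10 tested and with Xcr1 not well above background on any array, r was 0.61 and 0.17. T cell, B cell and fibroblast markers had nearly the same coefficients, 0.58, 0.57 and 0.53 over 14 arrays and 0.25, 0.29 and 0.23 without that array, and endothelium and CP epithelium markers had 0.30 and 0.14 over 14 arrays. Neuron markers, 10 of 10 tested, ran the other way, with r = -0.57 and -0.31, as did markers of astrocytes and oligodendrocytes, with -0.48 and -0.38. These relations were looked for after the class II values had been seen, and the part of other cells in the class II differences between arrays was not tested.

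A second probe of RT1-Bb behaved unlike the other probes of the 10 genes. It was 3.78, -6.39 and 4.52 in sham females, -5.91, 3.59 and 3.60 in OVX females, 3.04, -5.84, 3.99 and -3.61 in sham males and 3.81, 4.12, -6.63 and -5.59 in OOX replicates 2, 4, 1 and 3. On 8 arrays it was thus bright, on 5 it was not well above background, and sham male replicate 4 lay between, with both states in every group. The whole range was 11.2 log2 units, and the brighter probe of the same gene did not follow it (r = -0.46). RT1-Ba did, though near background (r = 0.93 over 14 arrays). Of the 10 probes of other genes most alike to it, 7 belong to genes among or within 1 Mb of the RT1 genes in the gene table, where 1.42% of 17957 named probes do. They were RT1-Ba, RT1-CE2, Vps52, RT1-A2, RT1-A1, RT1-CE13 and RT1-T18, with r from 0.70 to 0.93, and of the 20 most alike 10 were. This search was made after the values had been seen, and neighbouring genes are not independent. The 2 probes of RT1-Db1 ran together instead (r = 0.92). A value of RT1-Bb therefore depended on the probe: with the mean over both probes in place of the brighter one, the sham male minus sham female difference went from 0.23 to -0.51 and that of OOX from 0.24 to -0.11.

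**Figure D4:**
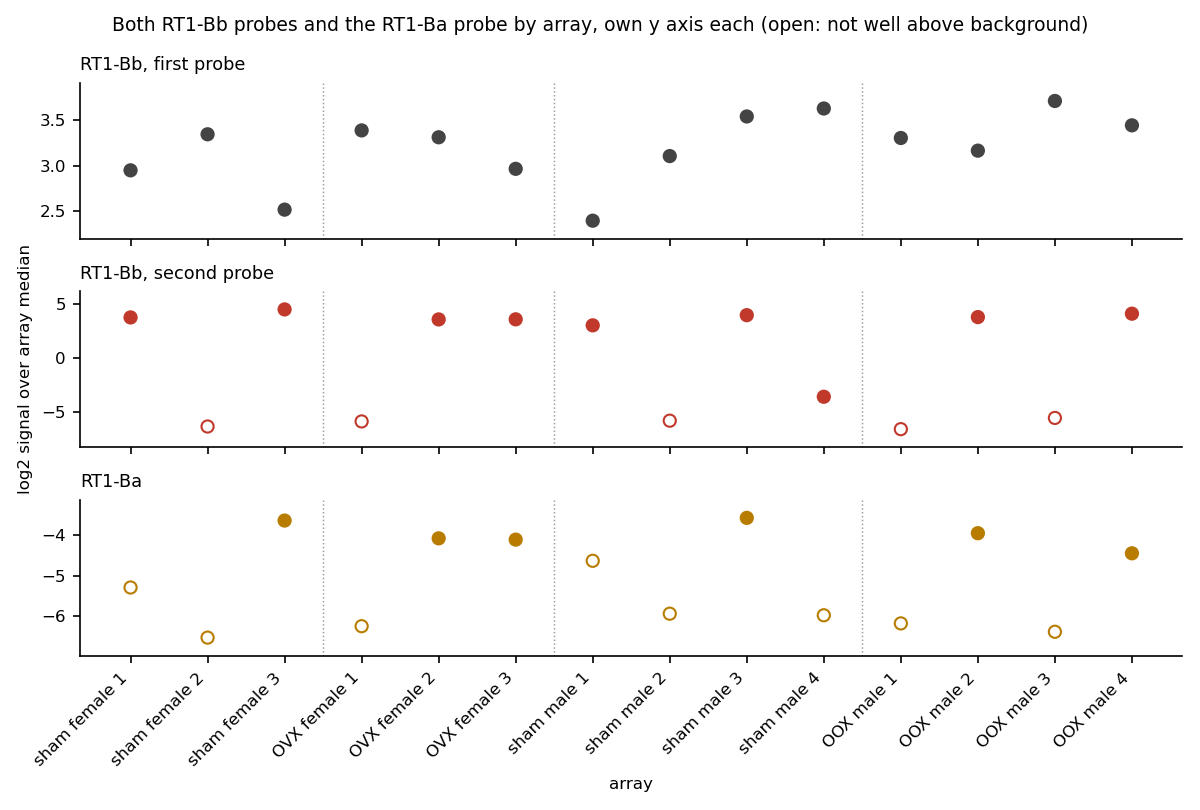
Log2 signal over the array median (y axis, own scale for each panel) of the first and second RT1-Bb probe and of the RT1-Ba probe on the 14 arrays (x axis), with dotted lines between groups and open circles where a probe was not well above background. The second RT1-Bb probe is bright on 8 arrays and at or near background on the others, in every group, and RT1-Ba is higher on those 8 arrays.

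The rest of the pathway, 50 genes tested in 5 lists, gave 0 calls in any comparison, by limma or by the methods' own test after adjustment. Of these 50, 8 had an unadjusted p under 0.05 after OVX, 3 after OOX, 2 in the contrast of the sexes and 4 between sham males and sham females, where 22.4%, 7.7%, 11.7% and 11.9% of all features did. Of other class II genes and promoter factors, 8 of 10 were tested. RT1-DOa, a modulator of RT1-DM, was not well above background on any sham female array and was on 2 of 3 OVX arrays. Nfya, a Y box factor, differed by 0.35 (SE 0.19) after OVX and by 0.18 (SE 0.16) after OOX. RT1-Ha, well above background on 2 of 4 sham and 1 of 4 OOX male arrays, differed by -1.78 after OOX (SE 1.23). In endosomal processing, 10 of 10 tested, the protease legumain (Lgmn) was -0.40 in OVX against sham females (SE 0.12, adjusted p = 0.0992). The cathepsins Ctsb and Ctsd were -0.34 and -0.35 in OOX against sham males (adjusted p = 0.648 for both), and Ctsd was -0.22 in OVX against sham females. In the interferon gamma route, 11 of 11 tested, Ifng itself was not well above background on any array, and Socs1, an inhibitor of its signalling, differed by 0.57 after OVX (SE 0.23, adjusted p = 0.214). After OOX, Irf8 differed by 0.29 (SE 0.24) and Irf2, well above background on 3 of 8 male arrays, by -0.28 (SE 0.31), both being interferon regulatory factors. Of the class I pathway, 14 of 18 were tested. RT1-N3 differed by 0.42 and B2m, the light chain of class I, by -0.42 in females (adjusted p = 0.151 and 0.198), and Tap2, a peptide transporter, by 0.99 in males (SE 0.28, adjusted p = 0.497). RT1-A1 differed by -0.29 in males (SE 0.13). Of genes of T cell costimulation, 7 of 8 were tested, and 2 of 7 were positive after OVX, with a median of -0.06 beside -0.04 over all features. Cd4, the T cell receptor partner for class II, differed by 0.75 after OVX (SE 0.18, adjusted p = 0.0623) and by -0.86 in the contrast of the sexes (SE 0.26, adjusted p = 0.267). Cd274, which encodes the inhibitory ligand PD-L1, was well above background on no female array, so that its fitted difference after OVX (-1.13, adjusted p = 0.107) lies below what the arrays measure, and it differed by 0.81 after OOX (SE 0.67). Cd80, a costimulatory ligand, was well above background on no male or sham female array and on 2 of 3 OVX arrays. It differed by 1.20 after OVX (SE 0.40, adjusted p = 0.136).

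Among markers of cells that can carry class II, 1 gene passed. Of 81 markers of all cell types tested, 3 were called after OVX and 0 after OOX, where 7.21% and 0.0619% of all features were. In the contrast of the sexes and between sham groups 1 of 81 was called, where 0.23% and 0.135% of all features were. Batf3, a dendritic cell transcription factor, fell by 2.41 log2 units after OVX (SE 0.24, adjusted p = 0.0306), differed by 3.46 in the male minus the female effect (SE 0.35, adjusted p = 0.00123) and was lower in sham males than in sham females (-1.55, adjusted p = 0.0228). In males it differed by 1.04 after OOX (adjusted p = 0.321). The remaining 7 dendritic markers tested did not pass. Of B cell markers, 4 of 6 were tested and 0 passed, with Cd22 not well above background on any array. They summed to 6.37 to 6.39 times the array median in sham females and 8.04 to 8.95 in OVX females, and 2 of 4 had an unadjusted p under 0.05, where 22.4% of all features did. These were Blnk (0.63, SE 0.17, adjusted p = 0.0763) and Cd79b, which was not well above background on any sham female array and was on 3 of 3 OVX arrays. In males, where Rfx5 differed by -0.21, the B cell sums overlapped, with a mean log2 sum of 2.65 ± 0.21 (SD, n = 4) after sham surgery and 2.93 ± 0.22 (SD, n = 4) after OOX. Fibroblast and endothelium sums did not overlap in females either, at 411 to 486 against 238 to 361 and at 171 to 188 against 128 to 166, lower after OVX. Nor did those of the interferon gamma route (112.4 to 146 against 99.6 to 111.8) and of Ciita, Rfx5 and Rfxap (5.36 to 6.49 against 5.03 to 5.19), also lower after OVX. The last sum is mostly Rfxap, by far the brightest of these regulators. Rfxap differed by -0.25 after OVX, whereas Rfx5 and Ciita differed by 0.65 and 0.28. Of single features, 29.2% did not overlap in females. The part of B cells, fibroblasts and endothelium in the Rfx5 difference was not tested. Macrophage and T cell markers gave 0 calls of 16 and of 8 in each comparison. An unadjusted p under 0.05 was found for 2 of 16 macrophage markers after OVX and 2 after OOX, all higher. For T cell markers it was 2 of 8 after OOX and 2 of 8 in the contrast of the sexes, all positive. Of 8 dendritic markers 3 were higher after OOX at that threshold, and after OVX 1 was higher and 1 lower. Over all features the shares were 22.4% after OVX, 7.7% after OOX and 11.7% in the contrast. Of 8 fibroblast markers 2 fell after OVX, Aldh1a2 (-0.82, adjusted p = 0.0459) and Mgp (-0.82, adjusted p = 0.0489), where 7.21% of all features were called. CP epithelium, endothelium, neuron and glial markers gave no call. With the methods' own test after adjustment, Batf3 in the contrast of the sexes was the single marker called. Leaving out 1 array at a time, Batf3 passed in 14 of 14 fits of the contrast of the sexes (adjusted p up to 0.00685), in 1 of 6 after OVX and in 1 of 7 between sham groups, and Aldh1a2 and Mgp in 0 of 6 each, with every difference of the same sign.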

How the data were processed

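RNA pools of rat CP were hybridised to 1-colour (Cy3) Agilent arrays. The deposited scanner files give an intensity per spot, from which the authors' scanner software, Agilent Feature Extraction 10.5.1.1, had subtracted background and spatial trends. A value table, deposited as log2 values that the authors centred with BRB-ArrayTools, lay within 0.01 of the log2 signal plus 1 constant per array for 99.0% to 99.4% of probes and served as an alternative. Control and outlier spots were left out, spots of a probe averaged, and log2 signals centred on the array median. Probes were named through a RefSeq gene table (GRCr8), and the probe with the highest mean log2 signal stood for a gene. The design was annotated on another build, so that old accessions can stay unnamed. Groups came from the sample titles. Comparisons used lmFit and eBayes of limma 3.58.1 (R 4.3.3) without covariates, with the arrays of both groups compared, and with all arrays for the contrast of the sexes. Adjusted p-values (Benjamini-Hochberg) span all 27448 features, with 0.05 as the threshold. The fit was tested on simulated data. Genes outside the 10 were named where called, or else as the 2 of a pathway list with the smallest p after OVX and after OOX, and up to 3 markers of a cell type were named. The members and lists were chosen with earlier results of these data known. 1 marker gene is not reported here and was left out of its list. The spacing of promoter elements was set when the windows were searched. Precision rests on few arrays, and dim genes are measured poorly.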

Additional observations from a re-analysis of the deposited data

Results flagged for a closer look

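In 1 of 24 sets of 4 arrays examined (10 genes and 2 further probes in both male groups), 1 array stood far from its group. Rfx5 in OOX males was -1.80 on replicate 4 and -2.18 to -2.24 on the other 3 arrays, a gap of 0.861 of the whole range, above the 95% critical value for 4 values. Chance gives about 1 such set in 20. Replicate 4 was on slide 3, with sham male replicates 1 and 2, and the other OOX arrays were on slide 5.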

How the results depend on the processing

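Of the 10 genes, Rfx5 after OVX was the single one called, and under alternatives the direction stayed while the call was often lost. Of the 10 genes, 0 were called in females with quantile normalization, normexp, the replicate block, the slide or scan day as a block and the methods' own test after adjustment, and 0 without any 1 array. The Rfx5 difference then lay between 0.26 and 0.72, with adjusted p from 0.0772 to 0.596. The lowest difference was that with normexp, whose offset of 50 by itself lessens log2 differences between dim signals. The replicate numbers did not clearly pair the arrays. In females r of same-numbered deviations was -0.02 to 0.14, and 2 of 3 sham arrays were most alike to the OVX array of their number. In males r was -0.31 to 0.14, and 1 of 4 sham arrays was most alike to the OOX array of its number. With the replicate block Rfx5 had an adjusted p of 0.0833 after OVX. Calls over all features then went from 1979 to 0 in females and from 17 to 8 in males. In the contrast of the sexes 1 gene, Rfx5, was called with 75th percentile scaling, in the value table and at the methods' own unadjusted thresholds. These settings called 0.539%, 0.419% and 8.18% of all features. Between sham groups 1, Rfx5, was called with the slide as a random block, which called 3.5% of all features and was added after seeing the data. The median over the 10 genes after OOX was 0.43 with the slide as a block, equal to the value within slide 3; leaving out 1 array gave medians of -0.03 to 0.11 after OVX, -0.12 to 0.13 after OOX, -0.20 to 0.10 in the contrast of the sexes and -0.09 to 0.16 between sham groups.

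Calls over all features ranged from 4 (without OVX replicate 2) to 1995 in females when 1 array was left out, and were 144 with quantile normalization and 203 with normexp. Of calls in females 37.8% were higher with the median, 45.6% with 75th percentile and 68.8% with quantile scaling. In males the shares were 94.1%, 82.4% and 81.2%, in the contrast of the sexes 61.9%, 41.2% and 53.8%, and between sham groups 21.6%, 38.9% and 25.6%.

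Uncalled differences changed sign as follows. With 75th percentile scaling they were 0.019 for RT1-Da and 0.029 for RT1-DMb after OVX, -0.068 for RT1-DMb and -0.0014 for Rfxap in the contrast of the sexes, and 0.069 for RT1-Db1 and 0.047 for RT1-DMb between sham groups. Quantile normalization gave 0.027 for RT1-Da and 0.024 for RT1-DMb after OVX, 0.013 for Cd74 after OOX, -0.053 for RT1-DMb in the contrast, and -0.13 for RT1-Ba, 0.076 for RT1-Db1 and 0.031 for RT1-DMb between sham groups. Normexp, run on median signals since the planned mean signals are not used here, gave -0.0025 for RT1-Ba and -0.032 for RT1-Db1 after OVX, 0.10 for Cd74 after OOX, 0.028 for RT1-Bb in the contrast, and 0.061 for RT1-Db1 and 0.015 for RT1-DMb between sham groups. The slide as a block gave -2.59 for RT1-Ba and 0.40 for RT1-Da after OVX, 0.83 for RT1-Ba, 0.34 for RT1-DMb, 0.46 for Cd74, 0.40 for Ciita and 0.038 for Rfx5 after OOX, and 2.89 for RT1-Ba and -0.0035 for Rfxap in the contrast. The scan day as a block gave -1.09 for RT1-Ba, 0.22 for RT1-Da and -0.0063 for RT1-Db1 after OVX and 0.88 for RT1-Ba in the contrast. The value table gave 0.0027 for RT1-DMb after OVX, 0.0056 for Cd74 after OOX, -0.027 for RT1-DMb in the contrast, and 0.033 for RT1-Db1 and 0.011 for RT1-DMb between sham groups. The mean over probes gave -0.067 for RT1-Db1 after OVX, -0.11 for RT1-Bb after OOX and -0.51 for RT1-Bb between sham groups. Leaving out 1 array gave, after OVX, -0.34 to 1.09 for RT1-Ba, -0.21 to 0.070 for RT1-Da, -0.093 to 0.11 for RT1-Db1, -0.29 to 0.084 for RT1-DMa and -0.15 to 0.036 for RT1-DMb. After OOX it gave -0.64 to 0.27 for RT1-Ba, -0.019 to 0.39 for RT1-Bb, -0.088 to 0.34 for RT1-Db1, -0.16 to 0.038 for RT1-DMb and -0.17 to 0.18 for Cd74. In the contrast it gave -1.30 to 0.14 for RT1-Ba, -0.30 to 0.16 for RT1-Bb, -0.10 to 0.33 for RT1-Db1 and -0.11 to 0.11 for RT1-DMb, and between sham groups -0.56 to 0.87 for RT1-Ba, -0.34 to 0.12 for RT1-Da, -0.22 to 0.21 for RT1-Db1 and -0.13 to 0.083 for RT1-DMb. The cause of these changes was not tested. Males shared 1 scan day, and no slide held both sham groups, so no such block could be fitted there.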
